A study of Homo sapiens with 9 samples.

Results

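PEG10 and other imprinted genes were followed in MDA-MB-231, an established triple-negative breast cancer cell line, after exposure to JQ1, a small molecule that displaces the BET bromodomain proteins from acetylated chromatin. The 10 symbols chosen were PEG10, SGCE, MEST, PEG3, PLAGL1, NDN, IGF2R, GRB10, CDKN1C and DLK1. Of these, 7 had a row in the platform's gene table, out of 14884 named genes, while SGCE, PEG3 and CDKN1C had no named row and were not analysed here. PEG10 was chosen because its own array values rose in both comparisons with control, so its difference from control is given as a description with no test. The others were chosen as imprinted genes, with earlier results of these arrays known, and where a gene had several rows the one with the highest mean over all arrays was used.

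Total RNA came from 3 control samples with no agent at time 0, from 3 samples after 12 h and from 3 after 24 h of 500 nM JQ1, each on its own Affymetrix Human Gene 2.0 ST array. All 9 samples are of this 1 cell line. No vehicle is named and the controls match neither treatment time, so solvent and culture time cannot be told apart from JQ1. Separate cultures are not stated for the replicates, and the p-values then reflect only sample-to-sample spread, possibly technical.

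An imprinted gene is transcribed mainly from the copy inherited from 1 parent. This follows DNA methylation laid down in the egg or the sperm, which marks 1 parental copy at a nearby control region. Such genes are known for regulating growth, and many lie in clusters under 1 control region. PEG10 itself descends from the Gag and Pol genes of a retrotransposon, is needed for the placenta, and lies head to head with SGCE, a sarcoglycan gene that is also imprinted. The array reads the sum of both copies, so the values say nothing about which copy was transcribed.

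Control 3 stood apart from the other controls. Over all 53617 rows of the table, controls 1 and 2 differed with an SD of 0.213 on the log2 scale, whereas control 3 differed from them with SDs of 0.385 and 0.389. From the JQ1 arrays control 3 differed with SDs from 0.314 (JQ1 12 h replicate 2) to 0.404 (JQ1 24 h replicate 3). The differences of the imprinted genes chosen, and others where it matters, are therefore also given without control 3. HEXIM1, a gene known to rise under BET inhibition, was 3.46-fold and 3.57-fold higher after 12 h and 24 h, and MYC, known to fall, was 1.95-fold and 1.70-fold lower (log2 2.05, 2.09, -1.22 and -1.02 without control 3). A second, dimmer row of HEXIM1 was higher by 0.44 and 0.61 on the log2 scale with all arrays. Among mesenchymal markers, vimentin lay between 10.23 and 10.69, AXL and MSN between 11.50 and 12.36, and CD44 between 7.15 and 8.11. Luminal KRT18 lay between 9.78 and 10.67, KRT8, GATA3 and EPCAM between 6.07 and 7.30, and FOXA1 between 4.70 and 5.16. The hormone receptors ESR1 and PGR lay between 4.81 and 5.17 and between 3.93 and 4.32, while ERBB2 had no named row. Rows of leukocyte (CD14, LYZ), endothelial (PECAM1, VWF) and fibroblast (LUM, DCN) markers lay between 2.91 and 5.06. Values of different probes are not comparable as RNA levels, and no detection calls were used here. For 44.4% of the genes at least 2 arrays carried exactly the same value, mostly in genes with low readings (median 5.29, against 6.97 for genes without repeats), so the spread of such genes can be understated.

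PEG10 was higher in every JQ1 array than in any control. It read 8.21, 8.32 and 9.53 in controls 1, 2 and 3, then 11.17, 11.10 and 11.36 after 12 h and 11.40, 10.84 and 10.88 after 24 h. The groups did not overlap, and control 3 lay 1.26 above the mean of controls 1 and 2. The mean difference from control on the log2 scale was 2.52 (SE 0.31) after 12 h and 2.35 (SE 0.31) after 24 h, or 5.75-fold and 5.10-fold. Against control 3 alone the treated means were higher by 1.68 and 1.51. Without control 3 the differences were 2.94 (SE 0.16) and 2.77 (SE 0.16), or 7.69-fold and 6.82-fold. When any 1 array was left out, the difference ran from 2.29 to 2.94 after 12 h and from 2.11 to 2.77 after 24 h.

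The 2 treatment times were not distinguishable for PEG10. The choice of PEG10 did not use this comparison. The mean was 11.21 ± 0.14 (SD, n = 3) after 12 h and 11.04 ± 0.31 (n = 3) after 24 h, and the ranges overlapped. The later value was lower by a log2 difference of -0.17 (95% interval -0.88 to 0.53, limma adjusted p = 0.96). The interval allows a change of up to 0.88 downward and 0.53 upward, so the test does not show that the level was the same.

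**Figure D1:**
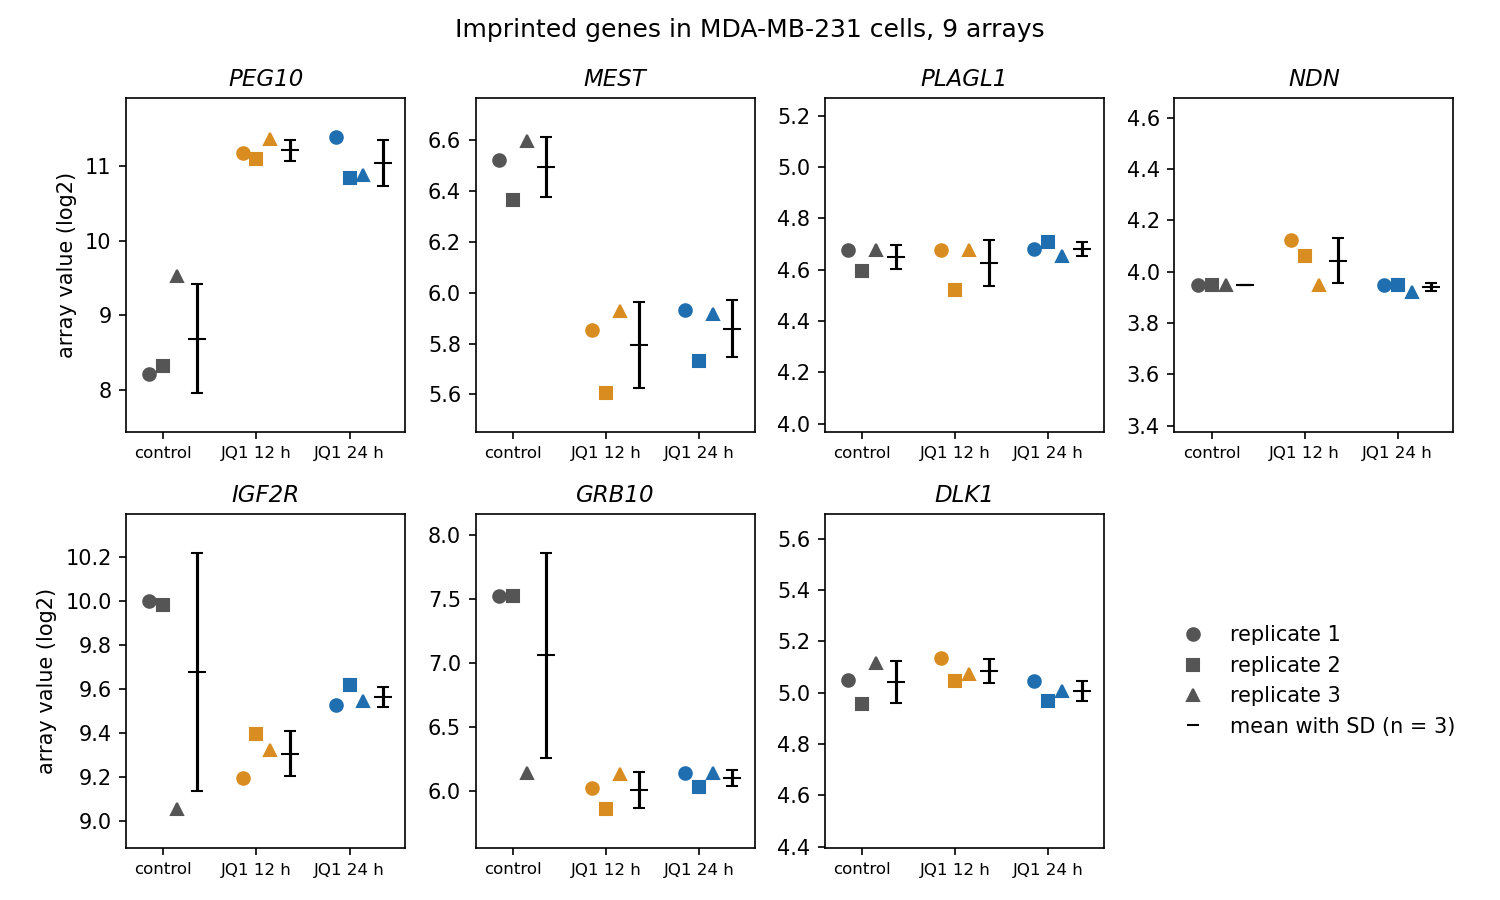
Log2 array values of the 7 measured imprinted genes in control, JQ1 12 h and JQ1 24 h arrays (x axis), 1 marker per array by replicate number, with the group mean and SD (n = 3) in black; each gene has its own y axis. PEG10 lies above all controls in the 6 JQ1 arrays and MEST below them, while control 3 lies at the JQ1 level in GRB10 and below every JQ1 array in IGF2R.

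Of the 7 measured imprinted genes, 2 passed the test in the limma fit over all genes (adjusted p under 0.05) after 12 h, PEG10 upward and MEST downward, and the same 2 after 24 h. In the whole series 7.93% of genes passed after 12 h (3.54% higher and 4.39% lower) and 11.5% after 24 h (5.17% higher and 6.34% lower). PEG10 was chosen for its rise, so nothing is read from its place in these counts. Without control 3, 4 of the 7 passed at either time, 1 higher and 3 lower, where 20.1% and 20.9% of all genes did. The median log2 difference of the 7 was -0.02 after 12 h and -0.03 after 24 h, against 0.01 for all genes at both times.

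MEST, also called PEG1, was the only member besides PEG10 that changed with all 9 arrays, and it moved the other way. It encodes an alpha/beta hydrolase-fold protein of the endoplasmic reticulum and is transcribed from the paternal copy, like PEG10, from another part of chromosome 7. Its values were 6.52, 6.36 and 6.60 in controls 1, 2 and 3, then 5.85, 5.60 and 5.93 after 12 h and 5.93, 5.73 and 5.91 after 24 h. Every JQ1 array lay below every control, and control 3 was the highest array. MEST fell by 0.70 on the log2 scale (SE 0.11, limma adjusted p = 0.0058) after 12 h and by 0.64 (SE 0.11, limma adjusted p = 0.0067) after 24 h, 1.62-fold and 1.55-fold lower. The fall was as large against control 3 alone, where the treated means differed by -0.80 and -0.74. Without control 3 the differences were -0.65 (adjusted p = 0.0035) and -0.58 (adjusted p = 0.0059). The call held whichever array was left out (adjusted p at most 0.029 after 12 h and 0.028 after 24 h).

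An intron of MEST carries MIR335, whose product miR-335 is known as a suppressor of metastasis in breast cancer cells. The RefSeq sequence is shown because this miRNA lies within MEST, which fell, with the seed (bases 2 to 8) in capitals, at chr7:130496126-130496148 (GRCh38.p14, plus strand).
hsa-miR-335-5p: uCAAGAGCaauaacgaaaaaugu
The row of its precursor, picked after its values were seen, read 3.25, 2.85 and 2.93 in the controls and between 2.71 and 3.09 in the JQ1 arrays. The groups overlapped, and neither difference passed the limma test (log2 -0.04 after 12 h, adjusted p = 0.91; -0.17 after 24 h, adjusted p = 0.45). The lowest value of any row was 2.01, so readings this low may not show a fall. The row does not measure the mature miRNA.

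In GRB10 the JQ1 arrays lay below controls 1 and 2 and close to control 3. GRB10 encodes an adaptor that dampens signalling from the insulin and IGF receptors and is imprinted in a way that depends on the tissue. It read 7.52, 7.52 and 6.14 in controls 1, 2 and 3, then 6.02, 5.86 and 6.14 after 12 h and 6.14, 6.03 and 6.14 after 24 h. Control 3 carried exactly the value of JQ1 24 h replicates 1 and 3 and differed by -1.38 from the mean of controls 1 and 2. With all arrays the log2 difference was -1.06 after 12 h (SE 0.32, limma adjusted p = 0.080) and -0.96 after 24 h (SE 0.32, limma adjusted p = 0.089), neither past the threshold. Without control 3 it was -1.52 (SE 0.09, adjusted p = 1.3e-05) and -1.42 (SE 0.09, adjusted p = 1.3e-05), or 2.86-fold and 2.67-fold lower. The call was thus gained by leaving out that control. GRB10 also passed when only genes above the median level were tested, by a narrow margin at both times, and with array weights, and under no other alternative run.

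IGF2R showed the same split among the controls. It encodes the receptor that carries IGF2 and mannose 6-phosphate proteins to lysosomes, and its imprinting in humans varies between individuals. It read 10.00, 9.98 and 9.05 in controls 1, 2 and 3, then 9.20, 9.40 and 9.32 after 12 h and 9.53, 9.62 and 9.55 after 24 h. Control 3 was the lowest of the 9 arrays, below every JQ1 array, while controls 1 and 2 were above them all. With all arrays the log2 differences were -0.37 (SE 0.22, limma adjusted p = 0.40) and -0.12 (SE 0.22, limma adjusted p = 0.83). Without control 3 they were -0.69 (SE 0.08, adjusted p = 0.00045) and -0.43 (SE 0.08, adjusted p = 0.0056). The 3 values after 24 h all lay above the 3 after 12 h, by a mean of 0.26, which did not pass the test with all arrays (limma adjusted p = 0.91) or without control 3 (adjusted p = 0.21).

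MEST, IGF2R and GRB10 were the members whose JQ1 arrays lay below controls 1 and 2. That grouping sets control 3 aside. In IGF2R every JQ1 array lay above control 3, and in the fit of all genes and arrays neither IGF2R nor GRB10 passed. The 250 bases before the outermost start that RefSeq lists for each gene (GRCh38.p14) are shown to set their upstream sequence side by side. They were searched for the E-box CACGTG, the site known for MYC and its partner MAX, which reads the same on both strands; matches are in capitals. Of the 10 symbols, 5 (MEST, PLAGL1, NDN, IGF2R and GRB10) had a promoter entry.
MEST, plus strand, chr7:130485925-130486174: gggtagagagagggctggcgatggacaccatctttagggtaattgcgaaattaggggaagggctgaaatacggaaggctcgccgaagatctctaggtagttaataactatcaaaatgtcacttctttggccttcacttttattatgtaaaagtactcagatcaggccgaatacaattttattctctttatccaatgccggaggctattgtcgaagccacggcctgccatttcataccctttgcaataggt
IGF2R, plus strand, chr6:159968832-159969081: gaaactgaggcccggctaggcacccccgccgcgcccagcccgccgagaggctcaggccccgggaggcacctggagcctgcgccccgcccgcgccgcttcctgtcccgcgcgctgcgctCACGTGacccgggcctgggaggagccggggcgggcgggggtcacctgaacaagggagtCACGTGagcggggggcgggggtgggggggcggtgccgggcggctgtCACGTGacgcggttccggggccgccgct
GRB10, minus strand, chr7:50793454-50793703: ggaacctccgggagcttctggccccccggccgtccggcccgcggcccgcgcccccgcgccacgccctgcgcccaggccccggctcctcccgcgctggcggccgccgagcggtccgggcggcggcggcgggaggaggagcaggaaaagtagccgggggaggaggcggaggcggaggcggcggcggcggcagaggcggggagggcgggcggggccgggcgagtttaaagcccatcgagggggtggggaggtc
IGF2R held 3 matches, and MEST and GRB10 held 0 in these windows. Of the members with an entry that are not shown, NDN held 0. PLAGL1, with 5 starts listed, held 0 before the outermost start and 1 before another. Among all 35116 windows of 250 bases, 6.34% held at least 1 match and 28 windows, or 0.080%, held 3 or more. Some windows overlap because a gene can have several starts. These shares cover windows of any G and C content, so they are not the rate for windows as rich in G and C as that of IGF2R. In the windows shown, content of G and C was 44.0% for MEST, 79.2% for IGF2R and 81.6% for GRB10, against a median of 58.0% over all windows. RefSeq lists 5 starts each for MEST and GRB10, and the windows before their other starts, which also held 0 matches, ran from 46.8% to 69.6% for MEST and from 30.4% to 81.6% for GRB10. These contents therefore hold for the outermost start alone. A match is a description of the letters and says nothing of what was bound there.

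The remaining measured members varied little. PLAGL1, a zinc finger transcription factor that restrains growth, lay between 4.52 and 4.71 on all arrays, and 4 arrays carried the same value. NDN, the growth suppressor necdin of the Prader-Willi region, lay between 3.92 and 4.12, with the same value on 6 arrays, the 3 controls among them. DLK1, a Notch ligand-like protein that holds back adipocyte differentiation, lay between 4.95 and 5.14. For these genes the groups overlapped in both comparisons with control, and the log2 differences ran from -0.03 to 0.10 (limma adjusted p from 0.51 to 0.96). Without control 3 they also passed in neither comparison. Since no detection calls were used, readings this steady do not show whether the RNA was present.

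Of 51 further imprinted genes listed, 25 had a named row. After 12 h 0 of the 25 passed the limma test, with 3 at an unadjusted p under 0.05, and after 24 h 2 passed, 1 higher and 1 lower. Over all genes 7.93% and 11.5% passed, so these counts are near or below the background, and no test sets the 25 against it. Groups did not overlap for 5 of the 25 after 12 h and 9 after 24 h, where 22.2% and 26.1% of all genes were so separated. The median log2 difference of the 25 was 0.07 after 12 h and 0.05 after 24 h, against 0.01 for all genes. NNAT, neuronatin, a membrane proteolipid gene expressed in the brain, was 5.64, 5.64 and 5.54 in the controls, 5.71, 5.50 and 5.75 after 12 h and 5.93, 5.92 and 6.15 after 24 h. All its 24 h values lay above all the others, and it rose by a log2 difference of 0.39 (SE 0.10, limma adjusted p = 0.032; 0.041 without control 3). ZNF597, a zinc finger gene, was 7.33, 7.19 and 6.91 in the controls, 6.63, 6.81 and 6.78 after 12 h and 6.61, 6.73 and 6.79 after 24 h. Every JQ1 array lay below every control, and after 24 h it fell by 0.44 (SE 0.11, limma adjusted p = 0.037; 0.0026 without control 3). Its difference after 12 h was -0.40 (adjusted p = 0.063), which passed narrowly when only genes above the median level were tested. It also passed after 12 h without control 3 (-0.52, adjusted p = 0.0038) and with array weights.

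These 2 calls were fragile. That of NNAT ended when control 1 or 2, or JQ1 24 h replicate 1 or 3, was dropped (adjusted p up to 0.12), and that of ZNF597 held only on dropping control 3 or JQ1 12 h replicate 1 (otherwise up to 0.13). Without control 3, 3 of the 25 passed after 12 h and 3 after 24 h, where 20.1% and 20.9% of all genes did. Those beyond NNAT and ZNF597, named after their values were seen, were MKRN3, of the Prader-Willi region, after 12 h (log2 0.61, adjusted p = 0.0094) and the antisense transcript GNAS-AS1 after 12 h (0.33, adjusted p = 0.034) and 24 h (0.36, adjusted p = 0.022). The long RNA MEG3, of the same cluster as DLK1, lay between 4.12 and 4.48 on all arrays (limma adjusted p = 0.98 at both times).

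The genes around PEG10 on chromosome 7 were only partly measured. Of 14 listed neighbours 8 had a named row, and 0 passed the limma test in either comparison, with 2 at an unadjusted p under 0.05 after 12 h and 1 after 24 h. With 7.93% and 11.5% of all genes passing, a count of 0 among 8 is near the background. SGCE, on one side of PEG10, and PPP1R9A, on the other, had no named row. The nearest measured genes in the RefSeq order were CASD1, beyond SGCE, with log2 differences of -0.20 and 0.19, and PON1, beyond PPP1R9A, with -0.03 and -0.02. TFPI2, an inhibitor of serine proteases that is imprinted in the placenta and also counted among the 25 above, read 10.40, 10.33 and 10.00 in the controls, 10.55, 10.53 and 10.80 after 12 h and 10.22, 10.40 and 10.26 after 24 h. Its 12 h values lay above all controls, with a log2 difference of 0.39 (limma adjusted p = 0.094), and that of 24 h was 0.05 (adjusted p = 0.86). With control 3 left out they were 0.26 and -0.07, neither past the threshold. PON2, a lactonase of the paraoxonase family, differed by -0.14 and -0.30 (adjusted p = 0.66 and 0.24), or by 0.01 and -0.14 with control 3 left out. Without control 3, PON3, another paraoxonase named after its values were seen, was the only neighbour to pass (log2 -0.80 after 12 h and -0.82 after 24 h, adjusted p = 0.0028 and 0.0024; -0.58 and -0.60 with all arrays, adjusted p = 0.11 and 0.082). Of the sarcoglycan and dystroglycan complex, to which SGCE belongs, 3 of 15 listed genes were measured (SSPN, DMD and UTRN) and 0 passed, with 0 and 1 at an unadjusted p under 0.05, which at 7.93% and 11.5% of all genes says nothing of the complex. The largest difference was that of UTRN, utrophin, at 0.30 after 24 h (limma adjusted p = 0.079), and SSPN, sarcospan, differed by -0.03 and 0.01.

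Among other human genes derived from retrotransposon Gag sequences, RTL5 and PNMA1 rose at both times. Of 24 listed, 12 had a named row. After 12 h 2 were higher and 0 lower, and after 24 h 2 were higher and 1 lower, with medians of 0.07 and 0.08. Over all genes 3.54% were higher and 4.39% lower after 12 h, and 5.17% and 6.34% after 24 h, and no test sets the 12 against them. RTL5, an X-linked gene of the same sushi-ichi family as PEG10, read 5.93, 5.77 and 5.81 in the controls, 6.56, 6.53 and 6.57 after 12 h and 6.74, 6.51 and 6.62 after 24 h. Control 3 lay between the other controls, and no JQ1 array overlapped them. RTL5 rose by a log2 difference of 0.71 (SE 0.08, limma adjusted p = 0.0020) and 0.79 (SE 0.08, limma adjusted p = 0.00080), or 1.64-fold and 1.72-fold, and by 0.70 and 0.77 without control 3. It passed whichever array was left out (adjusted p at most 0.011).

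PNMA1, of the paraneoplastic antigen family, whose Gag sequence comes from another retrotransposon, read 9.11, 9.12 and 8.53 in the controls, 9.82, 9.64 and 9.91 after 12 h and 9.97, 9.75 and 10.01 after 24 h. Control 3 was its lowest array. PNMA1 rose by 0.87 (SE 0.16, limma adjusted p = 0.013) and 0.99 (SE 0.16, limma adjusted p = 0.0056), and by 0.67 and 0.79 without control 3; the 12 h call was lost without JQ1 12 h replicate 1 or 3 (adjusted p up to 0.057). ARC, a neuronal gene whose protein forms Gag-like capsids, went the other way. It was 7.67 ± 0.56 (SD, n = 3) in the controls, with control 3 at 7.03 and the others at 7.99 or above, then 7.21, 7.05 and 7.01 after 12 h and 6.96, 6.72 and 6.81 after 24 h. Control 3 lay among the 12 h values. ARC fell by 0.84 after 24 h (SE 0.23, limma adjusted p = 0.044). Leaving out any other array ended that call (up to 0.15), and leaving out control 3 moved the difference to -1.17. Its 12 h difference of -0.58 did not pass with all arrays (adjusted p = 0.17), and it passed without control 3 (-0.90, adjusted p = 0.00023) and with array weights. RTL1, another sushi-ichi gene that is imprinted and also counted among the 25, differed by 0.14 and 0.07 (limma adjusted p = 0.48 and 0.75).

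Of 24 listed genes that write, read or erase DNA methylation or protect imprints, 18 were measured, and most did not pass. After 12 h 2 were higher and 1 lower, and after 24 h 2 were higher and 3 lower, with medians of 0.03 and -0.02. In all, 3 and 5 of the 18 passed, where 7.93% and 11.5% of all genes did, and this difference was not tested. ZNF445, a zinc finger protein known to guard imprinting control regions, read 7.03, 7.01 and 7.16 in the controls, 7.57, 7.51 and 7.76 after 12 h and 7.54, 7.54 and 7.48 after 24 h. All JQ1 arrays lay above all controls. It rose by a log2 difference of 0.55 (SE 0.08, limma adjusted p = 0.0060) and 0.45 (SE 0.08, limma adjusted p = 0.010), by 0.59 and 0.50 without control 3, and passed whichever array was left out (at most 0.042). Its second, dimmer row differed by 0.20 and 0.14, and the mean of both rows did not pass. TRIM28, the corepressor that ZNF445 and its kin recruit, read 9.35, 9.33 and 10.56 in the controls, 10.92, 10.93 and 10.74 after 12 h and 10.80, 10.69 and 10.71 after 24 h. Control 3 lay 0.30 and 0.17 below the treated means and 1.22 above the mean of the other controls. TRIM28 rose after 12 h (log2 1.12, SE 0.28, limma adjusted p = 0.042), which held only when control 3 was the array left out (otherwise up to 0.15), and stood at 0.99 after 24 h (adjusted p = 0.053). Without control 3 the differences were 1.52 and 1.39.

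ATRX, a chromatin remodeller, read 7.98, 7.89 and 8.26 in the controls, 8.38, 8.47 and 8.88 after 12 h and 8.63, 8.74 and 8.60 after 24 h. It rose after 24 h (log2 0.61, limma adjusted p = 0.024), which ended on dropping control 1 or 2 or a JQ1 24 h array (adjusted p up to 0.088), and did not pass after 12 h (0.54, adjusted p = 0.053). Without control 3 its differences were 0.64 and 0.72, both past the threshold. DNMT3A, a methyltransferase that lays down new methylation, was 6.82 ± 0.11 (SD, n = 3) in the controls and fell by 0.40 at both times (limma adjusted p = 0.045 and 0.037). The 12 h call was kept only without control 3 or JQ1 12 h replicate 3, and that of 24 h only without control 3 or JQ1 12 h replicate 1 or 3 (adjusted p otherwise up to 0.16 and 0.14). DNMT3B, the related enzyme, read 6.76, 6.69 and 6.58 in the controls, 6.55, 6.58 and 6.78 after 12 h and 6.30, 6.37 and 6.01 after 24 h. All its 24 h values stood below all controls, while those of 12 h overlapped them, and it fell by 0.45 after 24 h (limma adjusted p = 0.031), against -0.04 after 12 h (adjusted p = 0.90), or -0.50 and -0.09 with control 3 left out. Its difference between the times, -0.41, did not pass (limma adjusted p = 0.46), and its 24 h call was lost without control 1 or 2, JQ1 12 h replicate 2 or JQ1 24 h replicate 1 or 3 (up to 0.11). TDG, a glycosylase that removes oxidised methylcytosine, fell by 0.54 after 24 h (limma adjusted p = 0.029) and differed by -0.39 after 12 h (adjusted p = 0.11). Its 24 h call ended on dropping control 1 or a JQ1 24 h array (adjusted p up to 0.098). With control 3, its highest array, left out, TDG differed by -0.42 after 24 h (adjusted p = 0.030) and -0.27 after 12 h (adjusted p = 0.15). DNMT1, which copies methylation at replication, differed by 0.22 and -0.10 (adjusted p = 0.54 and 0.81). With control 3 left out, DNMT1 passed after 12 h (0.42, adjusted p = 0.030), and its 24 h difference changed sign (0.11, adjusted p = 0.64). Without control 3, 7 of the 18 passed at either time, 6 higher and 1 lower after 12 h and 4 higher and 3 lower after 24 h, where 20.1% and 20.9% of all genes passed.

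**Figure D2:**
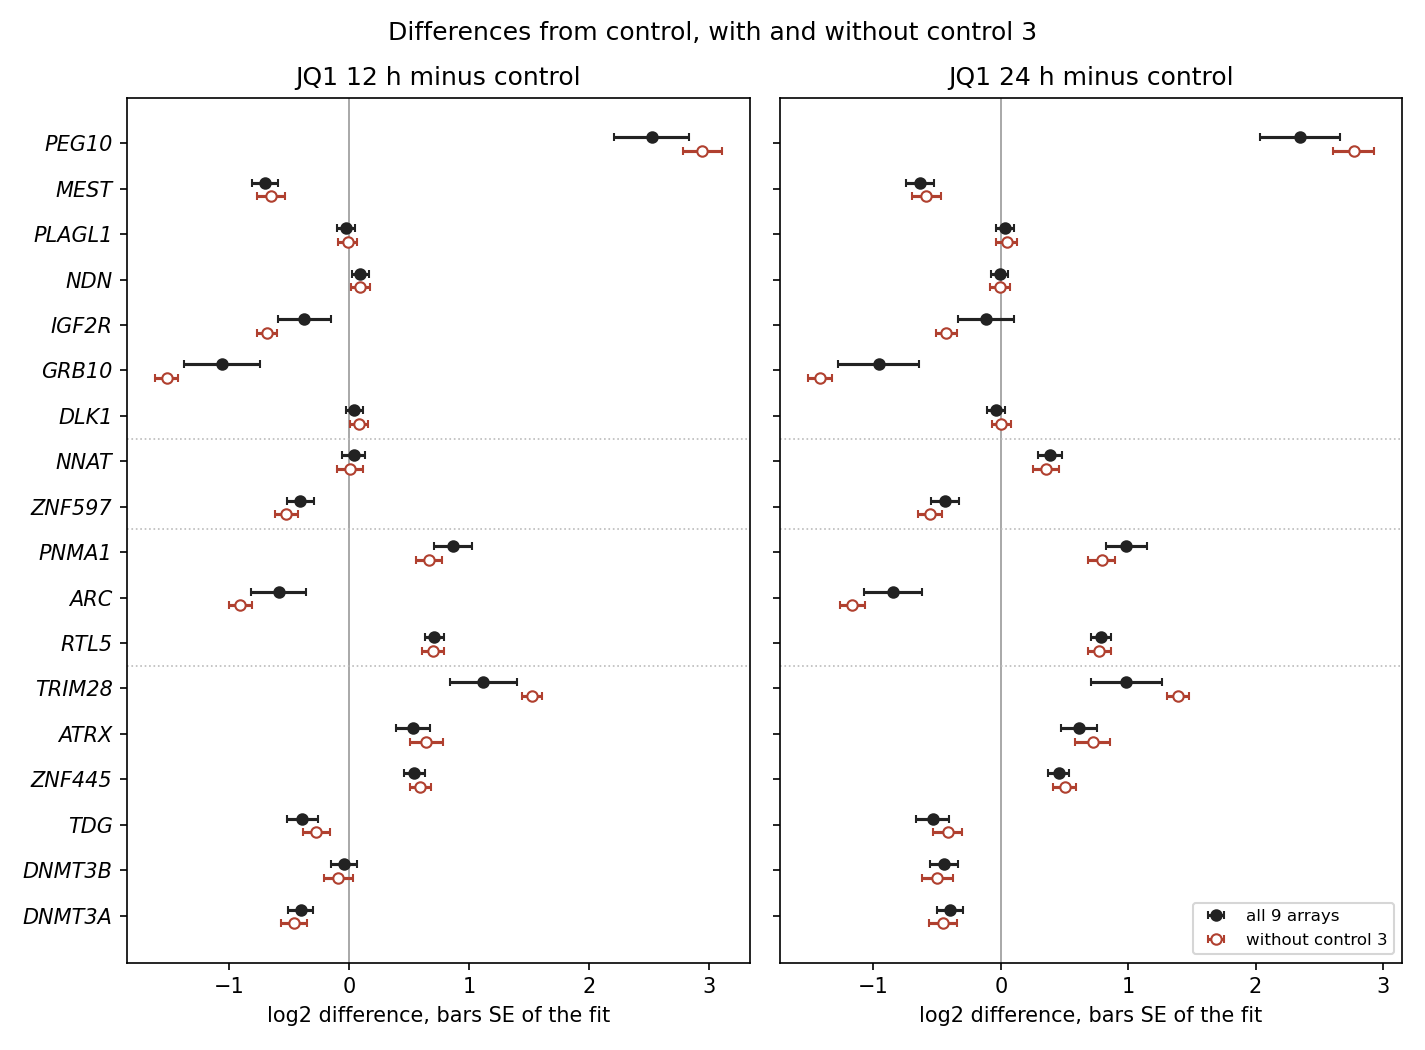
Log2 difference from control after 12 h (left) and 24 h (right) for the 7 measured imprinted genes and for genes of the other lists that passed the test, grouped by dotted lines into members, other imprinted genes, Gag-derived genes and methylation genes; filled points use all 9 arrays, open points leave out control 3, and bars are the standard error of the fit. Open and filled points nearly coincide for MEST (-0.70 and -0.65 after 12 h) and RTL5 (0.71 and 0.70) and lie apart for GRB10 (-1.06 and -1.52).

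The genes whose values over the 9 arrays were most like those of PEG10 were DUSP4 (Pearson r = 0.998), CDON (0.994), EZR (0.993), GLCE (0.992) and CALR (0.992), out of 14883 genes compared. DUSP4 is a MAP kinase phosphatase, CDON a cell surface receptor of Hedgehog signalling, EZR the membrane linker ezrin, GLCE an enzyme of heparan sulfate synthesis and CALR the chaperone calreticulin. These r are descriptions over arrays that fall into treated and untreated groups, and they include that step. They also include the place of control 3, which lay between the other controls and the JQ1 arrays in each of these genes. DUSP4 read 7.44, 7.49 and 7.92 in the controls, 8.53, 8.55 and 8.62 after 12 h and 8.66, 8.43 and 8.53 after 24 h. As in PEG10, its control 3 lay between the other controls and the JQ1 arrays, and within the 24 h group replicate 1 was highest. Their differences from control were smaller than that of PEG10, from 0.48 for EZR to 1.03 for CDON after 12 h and from 0.42 for EZR to 1.07 for CDON after 24 h. The largest of these is 2.05-fold and 2.10-fold, beside 5.75-fold and 5.10-fold for PEG10.

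**Figure D3:**
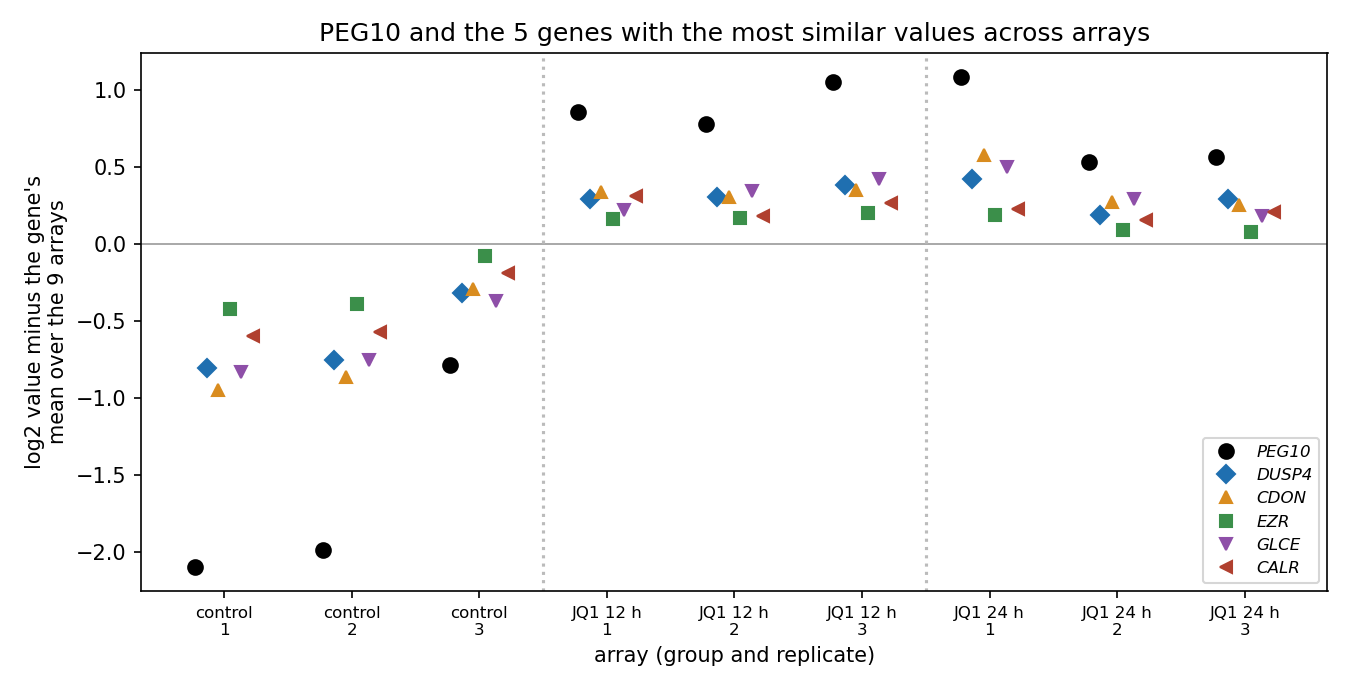
Log2 value minus the gene's own mean over the 9 arrays (y axis) in each array (x axis, by group and replicate) for PEG10 and the 5 genes of highest Pearson correlation with it. In all 6 genes controls 1 and 2 are lowest, control 3 is between, and the JQ1 arrays are highest, with the widest span for PEG10 (8.21 to 11.40).

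Between 24 h and 12 h of JQ1, 0 of the 7 imprinted genes passed the limma test, with 0 at an unadjusted p under 0.05, and 0 of the other 25, with 2 at an unadjusted p under 0.05. In the whole series 1 gene passed, or 0.00672%. Differences of the 7 between the times ran from -0.17 for PEG10 to 0.26 for IGF2R. Groups that did not overlap are common in these arrays, with 22.2% of genes so separated between 12 h and control and 26.1% between 24 h and control. Among the 7, 3 were so separated after 12 h (PEG10, MEST and GRB10) and 2 after 24 h (PEG10 and MEST).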

How the data were processed

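The members and the lists were chosen with earlier results of these data known. The deposited table holds log2 values for 53617 rows and 9 arrays, made by the authors with Transcriptome Analysis Console, per the submitters' processing notes. Its version, the background correction, normalization and probe summary are not given in the sources used here. The unit was read from the values (2.01 to 13.88, array medians 4.92 to 4.96). Array medians this close leave only changes relative to other genes.

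Of 16098 rows with 1 symbol, all matched RefSeq (GRCh38.p14) by gene ID; the row of highest mean stood for each of 14884 genes. The array's genome build is not given, so gene order alone was used from that table.

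With limma 3.58.1 in R 4.3.3, 1 mean per group was fitted over all 9 arrays, with empirical Bayes moderation (3.14 prior degrees of freedom) and Benjamini-Hochberg adjustment over all genes per comparison. A gene passed at an adjusted p under 0.05. The fit was tested on simulated data. The number of arrays limits the precision.

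Named genes are the members; from each other list up to 6 that passed, or the 2 with the highest readings where none did; the 5 genes most like PEG10; HEXIM1 and MYC. MIR335, MEG3, MKRN3, GNAS-AS1, CASD1, PON1, PON3, RTL1, DMD and DNMT1 were named after their values were seen. The same naming for SGCE could not be applied. Further lists cover other imprinted genes, Gag-derived genes, neighbours of PEG10, methylation genes and the sarcoglycan complex. Alternatives were another normalization, centring, dim filter, row rule, feature set, variance trend, samples, replicate block, array weights and leaving out each array.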

Additional observations from a re-analysis of the deposited data

How the results depend on the processing

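Over the alternatives run, 0 of 1599 values of named genes reversed with a call, 112 lost and 24 gained one. When 1 array was left out, genes called numbered from 543 to 2986 after 12 h (1181 with all arrays), from 786 to 3111 after 24 h (1714) and from 1 to 22 between the times (1), with the highest counts without control 3. Calls among the 7 imprinted members ran from 2 to 4 in both comparisons with control, and among the other 25 imprinted genes from 0 to 3 after 12 h and from 0 to 3 after 24 h. With only the 2 groups compared, 577 and 994 genes were called, and 0 of the other 25 after 24 h. With all rows tested, 0 of the 25 were called after 24 h and 3 rows between the times. With only genes above the median level, 1 of the 25 was called after 12 h and 1 after 24 h, and the 2 members called were PEG10 and GRB10. Array weights, added after seeing the data, gave control 3 a weight of 0.21, the lowest, with 3498, 3764 and 14 genes called, 4 of the 7 members at either time, and 3 and 5 of the 25. With the replicate block, 967 and 1478 genes were called and 0 of the 25 after 24 h. Deviations of same-numbered arrays from their group means correlated between -0.32 and 0.22. With 3 arrays per group and no other pairs compared, these values cannot decide whether the numbers pair the samples. The cause of these changes was not tested. MEST kept its direction and call at both times under every alternative that tested it; it lies outside the filter on dim genes.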
